A study of Mus musculus with 2 samples.

Results

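The 3 genes Mir208a, Mir208b and Mir499 encode the microRNAs that lie in introns of cardiac myosin heavy chain genes. They were found by their symbols in GENCODE M21 among the 2202 microRNA genes of the count tables, and all 3 were present in both libraries. MicroRNA libraries had been made from total RNA of hearts of female B6CASTF1/J mice, the F1 hybrid of C57BL/6J and CAST/EiJ, at an age of 18 to 20 months. There was 1 group of 2 libraries and no treatment or comparison group in the samples analysed here. The labels number the libraries as biological replicates 1 and 2, with a tissue record each and 1 donor record for both, so the spread between them may be partly technical. The animals are a hybrid whose reads were counted on mm10, and counts of the 2 parental alleles were not analysed here.

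A microRNA is cut from a hairpin in a longer transcript, and the mature strand pairs through its seed, a short stretch near its 5′ end, with target messenger RNAs and lowers their translation or stability. Heart muscle contracts with myosin heavy chains: Myh6 encodes the alpha chain, which predominates in the adult mouse ventricle, Myh7 encodes the slower beta chain of fetal heart, slow skeletal muscle and stressed heart, and Myh7b encodes a related chain. Mir208a is carried by the Myh6 transcript, Mir208b by that of Myh7 and Mir499 by that of Myh7b. In the mouse heart, miR-208a is known to be needed for the rise of Myh7 under stress or loss of thyroid hormone and for the expression of Myh7b, and so for the other 2 microRNAs, which these hosts carry.

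The mature sequences show what relates the 3 genes. They are given 5′ to 3′ from RefSeq (GRCm38.p6), where all 3 genes were matched, for the arm known as the main product of each hairpin, with the seed (bases 2 to 8) in capitals.
miR-208a-3p: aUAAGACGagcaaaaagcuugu
miR-208b-3p: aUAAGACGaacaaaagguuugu
miR-499-5p: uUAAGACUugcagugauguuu
miR-208a-3p and miR-208b-3p have the same seed, which no other of the 1679 mature microRNA names in the RefSeq table carries. The seed of miR-499-5p was found in 1 name, its own, but its first 6 bases, from base 2 to base 7, are those of the miR-208 pair, and these 6 letters begin the seed of just these 3 names in the table. Counted from 1 at the 5′ end of miR-208a-3p, miR-208b-3p differs at 3 of 22 positions, by G10A, A16G and C18U, all outside the seed. miR-499-5p differs from miR-208a-3p at 9 of 21 positions, of which G8U is the one inside the seed. The related arm comes from the 3′ side of both miR-208 hairpins and from the 5′ side of the miR-499 hairpin.

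The whole hairpins, with that arm in capitals, show how far the precursors differ.
Mir208a: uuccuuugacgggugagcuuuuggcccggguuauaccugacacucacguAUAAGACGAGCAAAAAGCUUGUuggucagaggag
Mir208b: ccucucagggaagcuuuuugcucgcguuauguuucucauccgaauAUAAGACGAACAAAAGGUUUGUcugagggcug
Mir499: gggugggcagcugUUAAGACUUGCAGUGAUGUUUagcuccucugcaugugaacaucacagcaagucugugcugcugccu
In a global alignment, the Mir208a and Mir208b hairpins were identical at 66.7% of 87 columns. The Mir499 hairpin was identical to that of Mir208b at 60.0% of 85 columns and to that of Mir208a at 48.5% of 99. Among the 2202 hairpins of the annotation, the longest stretch shared on the same strand was 12 nt for Mir208a, 11 nt for Mir208b and 12 nt for Mir499, and none of these stretches was shared with another of the 3 genes. Stretches this short are well under the length of a mature microRNA, in contrast to 28 nt shared by Mir1a-1 and Mir1a-2 and 31 nt shared by Mir133a-1 and Mir133a-2. On opposite strands the miR-208 pair shared more: the 14 nt CGAGCAAAAAGCUU, inside miR-208a-3p, are the exact reverse complement of AAGCUUUUUGCUCG in the 5′ arm of Mir208b. The minor 5′ arms of the pair, miR-208a-5p and miR-208b-5p, also share a seed, AGCUUUU, with 1 further name, miR-6415. The minimum free energy predicted for the folded hairpin was -42.5 kcal/mol for Mir499, -37.6 for Mir208a and -32.2 for Mir208b, against a median of -32.0 over 1005 RefSeq hairpins. Per nucleotide, these energies are -0.54, -0.45 and -0.42 kcal/mol, and 100 of the 1005 hairpins lie below Mir499, 296 below Mir208a and 451 below Mir208b.

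Each hairpin lies wholly in an intron and on the strand of its host. Mir208a (mm10 chr14:54949060-54949142, minus strand) is in intron 29 of the 39-exon transcript Myh6-201, in an intron of 542 nt. Mir208b (chr14:54975700-54975776, minus strand) is in intron 31 of the 41-exon transcript Myh7-201, in an intron of 461 nt. Mir499 (chr2:155622880-155622958, plus strand) is in intron 19 of the 42-exon transcript Myh7b-201, in an intron of 481 nt. The hairpins begin 195, 102 and 158 nt after the upstream exon, respectively, and end 264, 282 and 244 nt before the next one. The 2 miR-208 hairpins are 26557 nt apart, and 3756 nt separate the annotated ends of Myh6 and Myh7. No annotated gene lies on the opposite strand of any of the 3 hairpins.

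**Figure D1:**
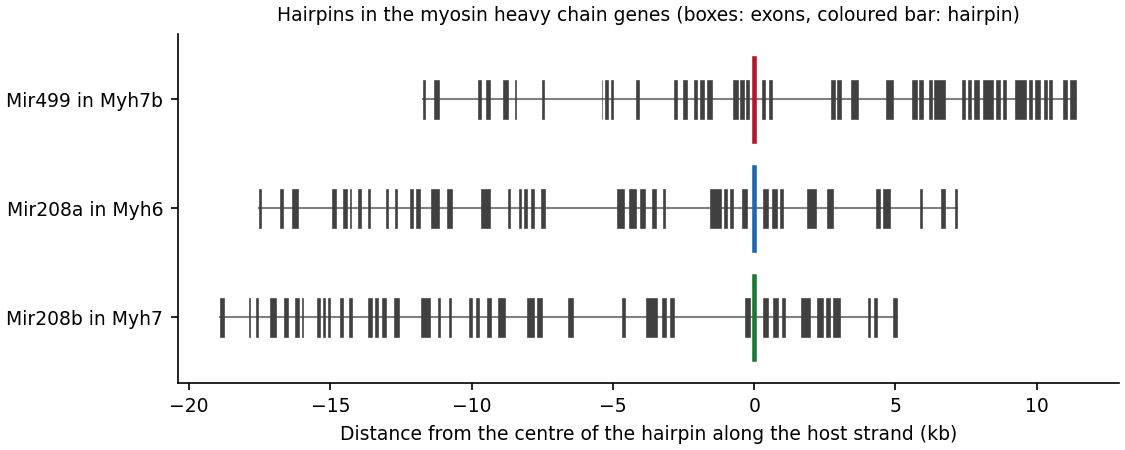
Exons (dark boxes) of Myh7b-201, Myh6-201 and Myh7-201 by distance in kb from the centre of the hairpin, drawn in the direction of transcription, with a coloured bar at the hairpin that is wider than its 77 to 83 nt. Mir499 lies near the middle of its host, while Mir208a and Mir208b lie in the 3′ part of theirs.

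Replicate 1 held 9362013 reads and replicate 2 held 10549508, of which 3383676 and 3676084 were counted as sense reads of microRNA genes. Values are given as counts, as CPM (the count scaled to 1000000 sense counts over all genes of the library), and as the rank among all 2202 genes. Intervals of single libraries cover counting error only and take reads as independent. Reads copied by PCR are not independent molecules, so the intervals may be too narrow. A further 43.9% and 43.2% of the reads mapped to several places and entered no gene count, so the ranks hold among uniquely mapped microRNAs. CPM here is a level per hairpin gene, not divided by length (77 to 83 nt), and reads of both arms of a hairpin enter the same count.

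The 3 genes stood in the order Mir499, Mir208a, Mir208b in both libraries, and their ranges did not overlap. Together they took 0.562% of the sense counts in replicate 1 and 0.483% in replicate 2 (mean 0.523% ± 0.0561, SD, n = 2). Reads of Mir499 and Mir208a made up nearly all of this, and Mir208b contributed little. Its part of the 3 genes' counts was 1.05% in replicate 1, with a Wilson 95% interval from 0.916 to 1.21, and 0.355% in replicate 2, with one from 0.277 to 0.454.

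Mir499, the microRNA of Myh7b, had 13457 counts in replicate 1, or 3977 CPM, with a Wilson 95% interval from 3911 to 4045. In replicate 2 it had 13113 counts, or 3567 CPM (3507 to 3629). Its mean was 3772 ± 289.9 CPM (SD, n = 2), a spread of 7.68% of the mean. It ranked at place 30 in replicate 1 and 35 in replicate 2. Mir499 was thus the highest of the 3 and the most even between the libraries, although its 2 intervals did not overlap.

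Mir208a, the microRNA of the adult myosin gene Myh6, had 5374 counts in replicate 1, or 1588 CPM (1546 to 1631), and 4584 counts in replicate 2, or 1247 CPM (1211 to 1284). Its mean was 1418 ± 241 CPM (SD, n = 2), a spread of 17.0% of the mean. It held rank 53 in replicate 1 and rank 58 in replicate 2. The higher value was again that of replicate 1.

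Mir208b, the microRNA of the slow and fetal myosin gene Myh7, had 200 counts in replicate 1, or 59.1 CPM (51.5 to 67.9), and 63 counts in replicate 2, or 17.1 CPM (13.4 to 21.9). Its mean was 38.1 ± 29.7 CPM (SD, n = 2), a spread of 77.8% of the mean, and its rank was 156 in replicate 1 and 226 in replicate 2. Mir208b was well above the limit that a count of 0 allows, which is 3 counts or 0.887 CPM in replicate 1 and 0.816 CPM in replicate 2. It was the lowest and the least even of the 3 genes.

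On the antisense strand, each of the 3 genes had 0 counts in both libraries, which allows up to 3 counts per library. The counts of reads on either strand were equal to the sense counts for all 3.

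**Figure D2:**
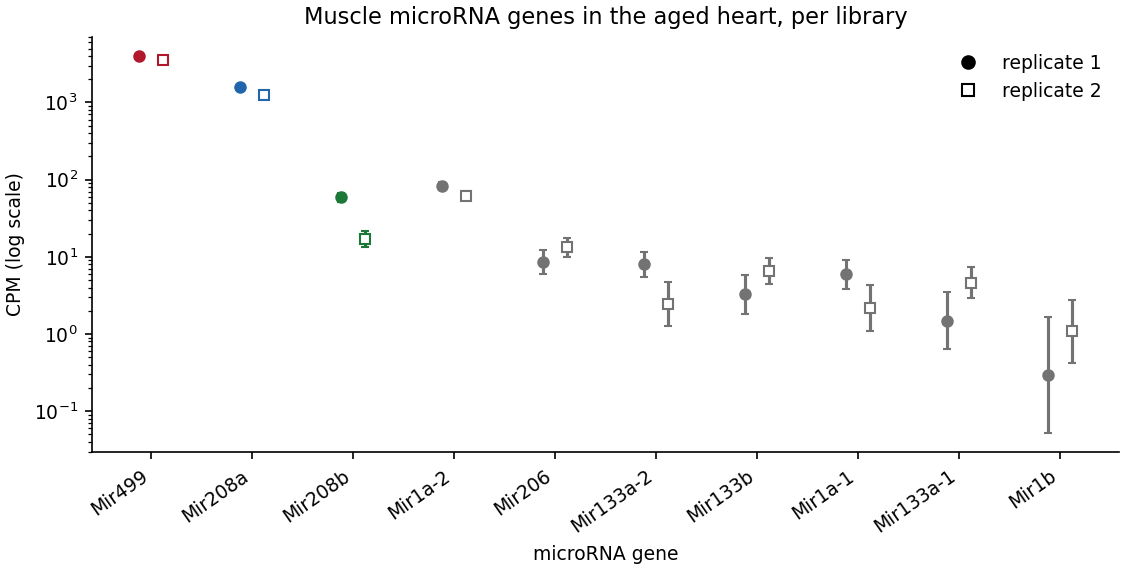
CPM on a log axis for Mir499, Mir208a and Mir208b (coloured) and 7 other muscle microRNA genes (grey), with filled circles for replicate 1, open squares for replicate 2 and Wilson 95% intervals as bars. Mir499 and Mir208a lie above the others in both libraries, at 1247 CPM or more, and Mir208b has 59.1 CPM in replicate 1 and 17.1 CPM in replicate 2. Values hold uniquely mapped reads alone, so those of the miR-1 and miR-133 genes are no measure of the mature microRNA.

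Of the 3 genes, 2 were high within their class. Among the annotated genes, 809 lie in an intron of a coding transcript on the same strand, of which 135 had at least 10 counts in each library, the minimum for a gene to be called detected here. Their median was 77.8 CPM, and that of all 316 detected genes was 62.2 CPM. Mir499 ranked at 19 and Mir208a at 25 of the 135, far above the median, whereas Mir208b ranked at 82, below it.

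The genes nearest in level over both libraries were found by the distance between log2 CPM values, a measure that rests on 2 libraries and describes level alone. Mir185 (1292 and 1069 CPM in replicates 1 and 2) and Mir29c (1889 and 968 CPM) lay nearest to Mir208a, at distances of 0.37 and 0.44. Mir151 (3473 and 4722 CPM) and Mir155 (4266 and 4882 CPM) lay nearest to Mir499, at 0.45 and 0.46, but the CPM of both was higher in replicate 2, where that of Mir499 was lower. Mir340 lay at 0.05 from Mir208b, with 200 and 65 counts, and Mir301 at 0.63, with 277 and 47 counts.

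Ratios of counts within a library need no scaling between libraries. The count of Mir499 exceeded that of Mir208a by a factor of 2.50 in replicate 1, with an exact 95% interval from 2.43 to 2.59, and by 2.86 in replicate 2, with one from 2.77 to 2.96. The hairpin gene in Myh7b thus had more reads than that in Myh6 in both libraries, by a mean factor of 2.68 ± 0.252 (SD, n = 2). These are ratios of read counts, and the amounts of the mature microRNAs were not measured. The ratio in replicate 2 was 1.14 times that in replicate 1 (conditional exact 95% interval 1.09 to 1.20).

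The 2 genes with 1 seed were far apart. Mir208a had 26.9 times the counts of Mir208b in replicate 1 and 72.8 times in replicate 2, so that the ratio in replicate 2 was 2.71 times that in replicate 1 (conditional exact 95% interval 2.02 to 3.66). Mir499 exceeded Mir208b by a factor of 67.3 in replicate 1, with an exact 95% interval from 58.5 to 77.8, and of 208 in replicate 2, with one from 163 to 271. The second factor was 3.09 times the first (conditional exact 95% interval 2.32 to 4.18). Both ratios to Mir208b therefore rest on which library is taken, and their means, 49.8 ± 32.5 and 138 ± 99.6 (SD, n = 2), have SDs of the order of the values. None of the 3 intervals of change holds 1, so each ratio changed by more than the counting error of reads taken as independent. The 3 ratios come from the same 3 counts, so they are not separate results. With 2 libraries of 1 group, these changes cannot be set against a spread between further animals.

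Grouped by the seed of the main arm, the miR-208 pair held 29.3% of the 3 genes' counts in replicate 1 (Wilson 95% interval 28.6 to 29.9). In replicate 2 it held 26.2% (25.5 to 26.8). Reads of both arms enter these counts, so the shares are of hairpin genes, not of seeds. Mir499 held the other 70.7% and 73.8%. The share of the pair was lower in replicate 2 by more than the counting error of reads taken as independent, with an SD of 2.21 percentage points between the libraries. Within the pair, Mir208a supplied 5374 of 5574 counts in replicate 1 and 4584 of 4647 in replicate 2.

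**Figure D3:**
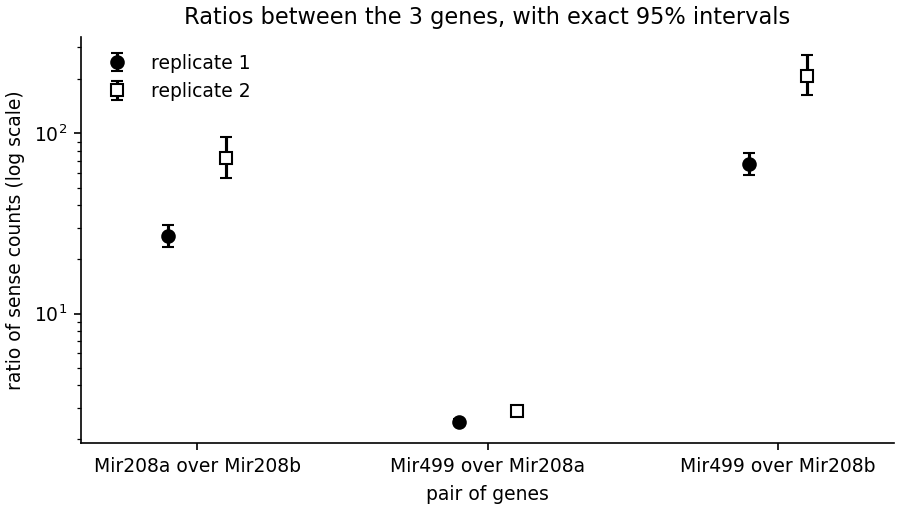
Ratio of sense counts on a log axis for the 3 pairs of genes, with filled circles for replicate 1, open squares for replicate 2 and exact 95% intervals as bars (hidden by the symbols where narrow). Mir499 over Mir208a stays between 2.50 and 2.86, while both ratios to Mir208b are higher in replicate 2.

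All 3 genes were called lower in replicate 2, and Mir208b differed by the most. Of the 316 detected genes, 191, or 60.4%, were called at 0.05. Called higher in replicate 1, as these 3 were, were 86, or 27.2%, so that such calls were common in these libraries. They were more common among genes with more counts. At a minimum of 100 counts, which Mir208b did not reach in replicate 2, 132 of 181 genes were called, 67 of them higher in replicate 1. After scaling by TMM, Mir208b was 3.76 times as high in replicate 1 as in replicate 2 (exact 95% interval 2.82 to 5.07), a log2 ratio of replicate 2 over replicate 1 of -1.91 (exact binomial test, adjusted p = 8.17e-23). Mir208a was 1.39 times as high (1.33 to 1.44), a log2 ratio of -0.47 (exact binomial test, adjusted p = 3.58e-59). Mir499 was 1.21 times as high (1.19 to 1.24), a log2 ratio of -0.28 (exact binomial test, adjusted p = 8.27e-56). The p-values are two-sided, adjusted by Benjamini-Hochberg over the 316 detected genes, and set these 2 libraries against counting noise alone, not conditions.

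By the size of the log2 ratio, Mir208b was at place 22 of 316, Mir208a at 150 and Mir499 at 206. The median absolute log2 ratio of all 316 genes was 0.45, so that Mir208a lay near the middle of the genes, Mir499 below it, and Mir208b among the 70 genes that differed by 2-fold or more.

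**Figure D4:**
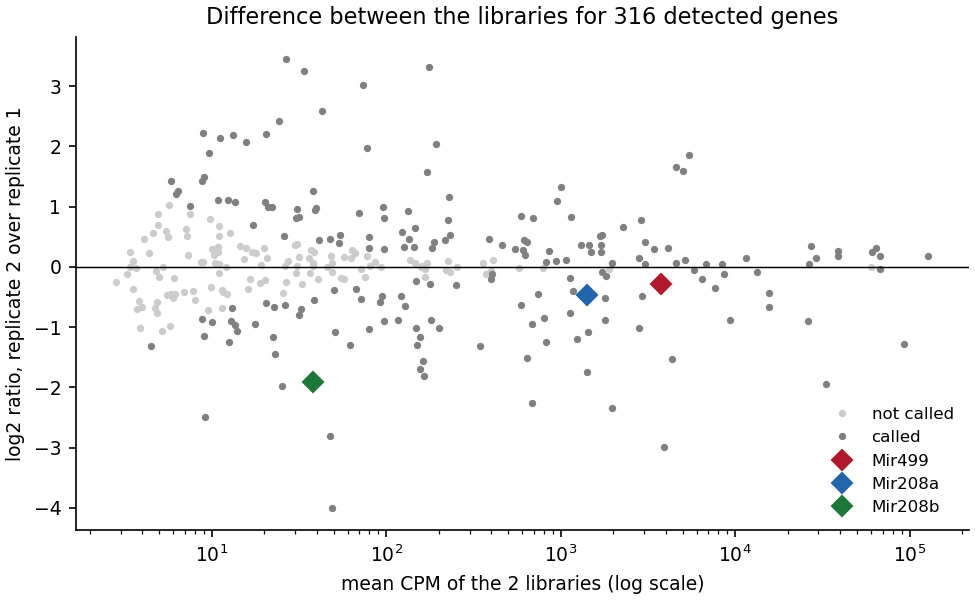
Log2 ratio of replicate 2 over replicate 1 against mean CPM on a log axis for the 316 detected genes, light grey where not called and dark grey where called by the exact binomial test. The diamonds of Mir499 (-0.28), Mir208a (-0.47) and Mir208b (-1.91) all lie below 0, that of Mir208b farthest.

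Of 7 other microRNA genes known from striated muscle, 3 reached 10 counts in each library, and the calls were 1 higher in replicate 1 and 0 higher in replicate 2. Mir1a-2, of the miR-1 group that is abundant in heart and skeletal muscle, was the called gene, with 278 and 227 counts and a log2 ratio of -0.54 (exact binomial test, adjusted p = 7.36e-05). Mir206, known from skeletal muscle, had 29 and 49 counts and a log2 ratio of 0.51 (exact binomial test, adjusted p = 0.206). Mir133b, its partner in 1 cluster, had 11 and 24 counts and a log2 ratio of 0.88 (exact binomial test, adjusted p = 0.139). The median log2 ratio of these 3 was 0.51, against -0.47 for the myosin intron genes and 0.05 for all 316 genes. This median is the value of Mir206, which was not called, so it gives no common direction of the 3. Summed CPM of the 7 genes was 109.6 in replicate 1 and 91.9 in replicate 2. Most of that sum was Mir1a-2, at 82.2 and 61.8 CPM. The other 4, Mir1a-1, Mir1b, Mir133a-1 and Mir133a-2, had from 1 to 27 counts per library. The myosin intron genes made up 98.1% ± 0.0315 (SD, n = 2) of the counts of the 10 genes listed here as muscle genes. This share depends on the list. Mir486, placed here in the erythroid list alone, had 4641 counts in replicate 1 and 3236 in replicate 2 and is not among the 10. The share also holds for uniquely mapped reads alone. Mir1a-1, Mir1a-2, Mir133a-1, Mir133a-2 and Mir133b share 21 to 31 nt with another locus on the same strand, so that their counts are no measure of the mature microRNA. Mir1b is the reverse complement of Mir1a-2 over 72 nt.

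Markers of other cell types moved between the libraries as well, and in both directions. Of all 316 detected genes, 86 were called higher in replicate 1 and 105 higher in replicate 2, so calls either way were common. Whether a list held more calls than this was not tested. Only detected genes could be called, while the counts below are out of all genes of a list. Detected were 1 of 2 endothelial, 2 of 3 smooth muscle and 4 of 5 fibroblast genes. So were 7 of 8 epithelial, 1 of 7 neuronal and all erythroid and white blood cell genes. Summed CPM was lower in replicate 2 for the endothelial list (129044 and 57715 CPM, 1 of 2 genes called) and the erythroid list (4182 and 1938, 3 of 3 called). It was higher in replicate 2 for the white blood cell list (8644 and 16363, 5 of 5 called), the smooth muscle list (35639 and 50826, 2 of 3 called) and the epithelial list (216 and 857, 6 of 8 called). The fibroblast list stood at 5231 and 4470, with 1 of 5 genes called each way and Mir199a-1 at 0. The neuronal list stood at 28.7 and 26.4, with 0 of 7 called and 5 at 0, namely Mir9-1, Mir9-2 and the 3 Mir124a genes. These 5 genes and Mir199a-1 share 28 to 33 nt with another locus on the same strand, and reads that map to several places entered no gene count, so a 0 here does not show that the microRNA was absent. The liver gene Mir122 stood at 23.9 and 17.1 and was called higher in replicate 1 (log2 ratio -0.61; exact binomial test, adjusted p = 0.0209). With sense gene totals this call was lost (adjusted p = 0.0851 by the same exact test). The sum of the 3 myosin intron genes was 5624 CPM in replicate 1 and 4831 CPM in replicate 2. The part of these other cell types in the differences of Mir499, Mir208a and Mir208b was not tested. In whole tissue, fewer heart muscle cells and less of a microRNA per cell cannot be told apart.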

How the data were processed

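MicroRNA reads of 2 heart libraries were analysed. For each microRNA gene the authors deposited raw counts in 3 columns without a header. They were taken as reads on either, the sense and the antisense strand. The first column summed to 2458090 (replicate 1) and 2824159 (replicate 2), below the sense totals, so it lacks some sense reads. Per the deposited readme of each library, the build was mm10 and the annotation GENCODE M21. The name of the aligner was not given in the sources used here, nor was that of the counter. The 4 rows that are no genes took 14.9%, 43.9%, 5.07% and 0% (replicate 1) and 16.2%, 43.2%, 5.75% and 0% (replicate 2) of the reads as unmapped, multimapping, featureless and ambiguous, and were left out.

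The sense column was used. CPM was taken on sense gene totals. Libraries were compared per gene by a two-sided exact binomial test with the expected share from TMM effective totals (edgeR 4.0.16), adjusted by Benjamini-Hochberg over all genes with 10 counts in each library; 1 group of 2 samples allows no quasi-likelihood test. The binomial test, on library totals without TMM, was first run on simulated data with counting noise alone. It called 1 of 114 unchanged genes and 89 of 98 genes changed 2-fold. Such data hold no further spread between libraries, so they cannot show how the test fares with it. DESeq2 1.42.0 gave other size factors. Intervals came from scipy 1.17.1, hairpin energies from RNAfold 2.7.2 and alignments from Biopython 1.88, under Python 3.11.15 and R 4.3.3. Genes named are the 3 members, 7 other muscle genes and the 2 detected genes nearest to each member. Marker genes at 0, Mir122 and Mir486 were named after their values were seen. Members and lists were chosen with earlier results of these data known.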

Additional observations from a re-analysis of the deposited data

How the results depend on the processing

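The log2 ratios between the libraries kept their sign and their call in all 17 alternatives that gave a value. They ranged from -0.52 to -0.35 for Mir208a, from -2.01 to -1.79 for Mir208b and from -0.32 to -0.16 for Mir499, over DESeq2 size factors, sense gene totals, reads on either strand, other minimum counts and replicate 2 thinned to the total of replicate 1. At a minimum of 100 counts Mir208b, Mir133b and Mir206 were not tested, and Mir1a-2 has 0 reads in the column for either strand. Otherwise Mir1a-2, Mir206 and Mir133b kept their sign and their side of the threshold in the alternatives that gave a value. The call of Mir122, whose alternatives were chosen after seeing the data, was lost in 3 of them, with exact binomial adjusted p of 0.0851 with sense gene totals, 0.0533 with no minimum count and 0.0596 with replicate 2 thinned. Sense gene totals moved the median of all genes by 0.12 on the log2 scale, to 0.18. With the column for either strand as the total, Mir208a stood at 1905 CPM, Mir499 at 5059 CPM and the 3 genes at 0.702% of the counts. Their counts were the same and the total was smaller, as this column lacks sense reads of other genes, such as Mir1a-2. Of all reads, the 3 genes took 0.186%. Taking 1 library alone gave 26.9 to 72.8 for Mir208a over Mir208b and 67.3 to 208 for Mir499 over Mir208b. The number of genes called was 132 to 201, with 181 to 708 tested. Depth limits Mir208b most, at 63 counts in replicate 2. No paired analysis was possible because there is 1 group.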
